A study of Mus musculus with 6 samples.

Results

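The genes described here serve the release of lytic granules from natural killer (NK) cells and the protection of those cells against their own granzymes. They were chosen by symbol: Rab27a, Unc13d, Stx11, Stxbp2, Vamp7, Lyst and Lamp1 for granule docking, priming, fusion and granule structure, and the serpin genes Serpinb9, Serpinb9b and Serpinb6b for granzyme inhibition. Of these 10 genes, 9 had a row among the 55291 gene names of the count table and all 9 entered the test with 16480 genes in all. Vamp7, whose product is a vesicle fusion protein, had no row and was not analysed here.

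RNA was measured in NK cells of mouse spleen under resting conditions, in 3 libraries from wild-type (WT) mice and 3 from HSF1-S303/7A mice. The latter carry a form of heat shock factor 1 with alanine in place of serine at residues 303 and 307. The libraries are named WT 1, 2 and 3 and S303/7A 5, 6 and 7, and each was taken as 1 mouse. Cells were enriched with DX5 beads, sorted as CD49b+, CD3e- and made into libraries with the SMART-seq HT kit. The labels give no age, sex, strain or batch. A change of residues need not alter the RNA level of the mutated gene, so the counts do not check the genotype.

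A cytotoxic cell kills by moving its lytic granules to the contact with a target cell and fusing them with the plasma membrane. The small GTPase Rab27a and the priming factor Munc13-4, encoded by Unc13d, dock and prime granules, and the SNARE protein syntaxin 11 with its partner Munc18-2, encoded by Stxbp2, takes part in fusion. Loss of any of these 4 gene products in people impairs killing by NK and T cells and causes severe immune disease, and loss of Lyst, as in beige mice, leaves giant granules that are poorly released. Some serpins of clade B act in the cytosol, where they trap granzymes that leak from granules.

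The 3 serpin genes lie beside each other on chromosome 13 (GRCm38), all on the plus strand. Serpinb6b spans 32965209 to 32979067, Serpinb9 33003250 to 33017957 and Serpinb9b 33027416 to 33041884, so the group covers 76.7 kb. The 250 bases upstream of the RefSeq start of Serpinb9 and Serpinb9b (GRCm38.p6, plus strand) are shown because the genes are close relatives that differ several-fold in level, with runs of at least 10 aligned identical bases in capitals. These lie at chr13:33004291-33004540 and chr13:33027164-33027413. GENCODE gives 2 Serpinb9 transcripts, 1 with the RefSeq start at 33004541 and 1 that starts 1291 bases earlier, so the Serpinb9 stretch lies upstream of the former and in an intron of the latter.

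Serpinb9: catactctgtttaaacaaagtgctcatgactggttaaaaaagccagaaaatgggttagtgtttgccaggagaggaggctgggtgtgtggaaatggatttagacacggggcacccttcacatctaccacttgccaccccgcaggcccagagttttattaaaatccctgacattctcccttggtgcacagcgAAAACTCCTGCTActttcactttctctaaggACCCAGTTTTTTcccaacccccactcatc
Serpinb9b: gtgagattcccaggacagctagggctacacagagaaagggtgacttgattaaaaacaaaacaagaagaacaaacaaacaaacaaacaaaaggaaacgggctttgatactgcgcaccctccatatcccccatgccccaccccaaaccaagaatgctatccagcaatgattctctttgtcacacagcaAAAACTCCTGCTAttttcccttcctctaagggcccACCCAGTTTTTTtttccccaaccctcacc

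A global alignment of the pair gave 163 identical and 57 mismatched bases with 60 gap positions, an identity of 58.2%. The 2 capitalised runs of 13 and 12 bases both fall within 64 bases of the start. Neither stretch is a copy of the other over its length, and no data on binding were used here.

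Lamp1 encodes a membrane protein of lysosomes and lytic granules that appears on the cell surface when granules fuse. The 250 bases upstream of its RefSeq start (chr8:13158911-13159160, GRCm38.p6, plus strand) are shown because it was the only one of the 8 genes with a RefSeq window that held CACGTG more than once, the core of the element bound by regulators of lysosome genes; these letters are in capitals.

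Lamp1: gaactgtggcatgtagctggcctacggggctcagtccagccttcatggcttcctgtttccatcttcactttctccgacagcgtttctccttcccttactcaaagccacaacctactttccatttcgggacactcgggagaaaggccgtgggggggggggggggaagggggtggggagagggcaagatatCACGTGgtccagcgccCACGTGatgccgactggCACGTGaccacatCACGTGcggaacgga

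CACGTG, which reads the same on both strands, stood 4 times in this stretch. Of 32851 RefSeq promoter windows of 300 bases (250 before and 50 after the start), 7.15% held it at least once and 8 held it 4 or more times. Windows were found for 8 of the 10 genes, all but Unc13d and Vamp7, with 2 windows for Rab27a. Stxbp2 and the downstream window of Rab27a held it once each.

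The letters GAANNTTC or TTCNNGAA, pairs of the unit bound by heat shock factors, were searched in the same windows, and each reads the same on both strands. None of the 9 windows of these genes held either, against 15.1% of all 32851 windows and 12.2% of those of tested genes. A search of this kind describes letters in a short window and says nothing of binding elsewhere.

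None of the 9 genes passed the test for a genotype difference in edgeR's quasi-likelihood test with Benjamini-Hochberg adjustment over all genes, where 0.364% of tested genes passed. DESeq2 and limma-voom also called none of the 9, with 434 and 38 genes called in all. At an unadjusted p under 0.05 there were 4 of the 9, Rab27a, Lyst and Serpinb6b with values higher in S303/7A and Stxbp2 with lower ones, against 9.68% of all tested genes. That count fell when 1 library was left out, which also leaves fewer libraries to the test. It was 0 without WT 1, 1 without WT 2 or S303/7A 6 (Rab27a) and 1 without S303/7A 5 (Lamp1). It was 2 without S303/7A 7 (Lyst and Rab27a) and 3 without WT 3 (Serpinb6b, Serpinb9 and Stxbp2). Without WT 1 the log2 folds of Rab27a, Lyst, Serpinb6b and Stxbp2 were 0.33, 0.29, 0.22 and -0.19. With all libraries they were 0.39, 0.30, 0.19 and -0.18. The count at an unadjusted p under 0.05 was 2 with library totals and 3 in DESeq2, which had Lamp1, Lyst and Rab27a. It was 3 in limma-voom and with counts thinned to equal totals. With RLE scaling, a robust fit or no filter on low counts it was 4. Without the filter, Lamp1 stood in place of Serpinb6b. Levels of 4 of the 9 did not overlap between the genotypes, which held for 16.0% of all tested genes (7.64% higher and 8.37% lower in S303/7A). The 4 were Lyst, Lamp1 and Serpinb6b, higher in S303/7A, and Stxbp2, lower. Of the 9 genes, 3 met both conditions, against 8.62% of all tested genes. With 9 genes picked by function, and with earlier results of these data known, these shares are a description and not a test.

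Counts behind these values ranged from 709 to 1474 per library for Lamp1, the gene with the fewest reads here, to 32824 to 73865 for Serpinb9. Total counts per library were 53845572 to 72736406 in WT, against 43189163 to 47248039 in S303/7A, so depth differed with genotype. All levels below are CPM, read counts relative to library size as edgeR gives them, with TMM factors.

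**Figure D1:**
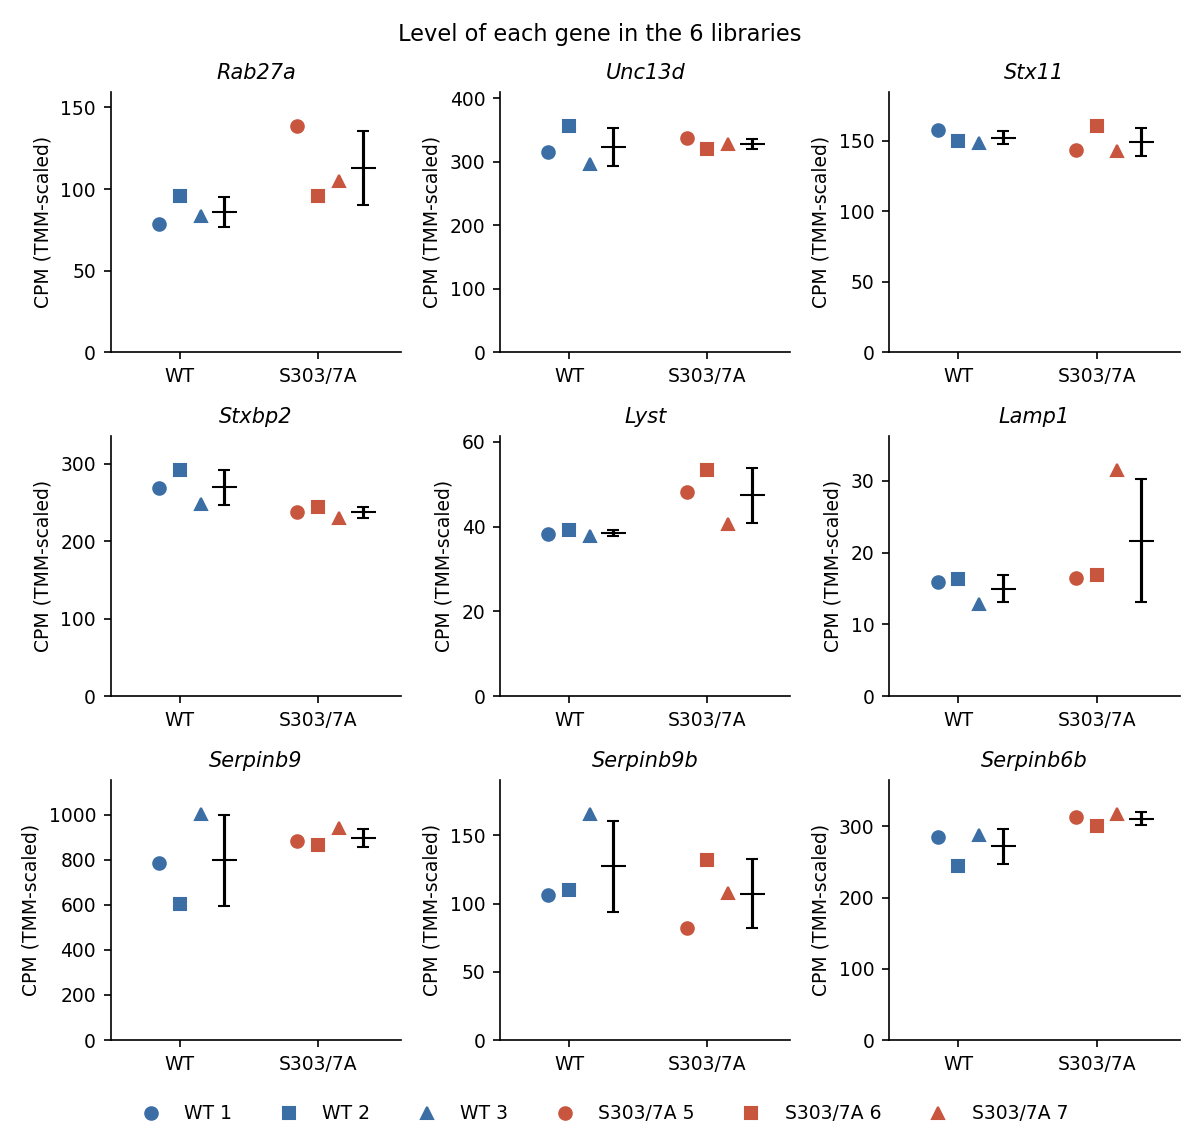
Level of each of the 9 genes (CPM, TMM-scaled, axes from 0) in the 3 WT and 3 S303/7A libraries, 1 symbol per library, with the mean and SD (n = 3) in black. The groups are apart for Stxbp2, Lyst, Serpinb6b and, by 0.268 CPM, Lamp1.

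Among the docking and priming genes, Rab27a (chromosome 9, 73044854 to 73097629) was at 78.5, 95.9 and 83.4 CPM in WT 1, 2 and 3. The libraries S303/7A 5, 6 and 7 had 139, 95.6 and 105 CPM. The S303/7A levels were mostly higher, but the lowest of them, in S303/7A 6, lay 0.290 CPM under the highest WT level, so the groups touched. Relative to WT, the log2 fold in S303/7A was 0.39 ± 0.15 (SE; 95% interval from 0.04 to 0.75), and the adjusted p in edgeR was 0.467. Without S303/7A 5, the highest library, the fold was 0.22.

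Unc13d (chromosome 11, 116062095 to 116077961) had 316, 357 and 297 CPM in WT. The S303/7A libraries had 337, 321 and 328 CPM, all inside the WT range. Its log2 fold was 0.02 ± 0.08 (SE; 95% interval -0.16 to 0.21), and the adjusted p in edgeR was 0.968. The upper bound of the interval corresponds to a 1.16-fold higher level.

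Among the fusion genes, Stx11 (chromosome 10, 12938209 to 12964298) was at 158, 150.1 and 149 CPM in WT and at 144, 160.4 and 143 CPM in S303/7A. The groups overlapped, and the WT libraries spread by only 3.18% (SD over mean). A log2 fold of -0.03 ± 0.07 (SE; 95% interval -0.20 to 0.14) gave an adjusted p of 0.950 in edgeR.

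Stxbp2 (chromosome 8, 3630955 to 3643644) was at 268, 292 and 248 CPM in WT and at 238, 244 and 230 CPM in S303/7A. Every S303/7A library was below every WT library, with a gap of 3.43 CPM. This was a log2 fold of -0.18 ± 0.08 (SE; 95% interval -0.36 to -0.0033), an unadjusted p of 0.0469 and an adjusted p of 0.508 in edgeR.

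Of the genes for granule structure, Lyst (chromosome 13, 13590397 to 13778803), a very large BEACH-domain protein that limits the size of lysosomes, was at 38.3, 39.3 and 37.8 CPM in WT. It was at 48.1, 53.4 and 40.6 CPM in S303/7A, all above WT. The WT libraries were close together, with an SD of 2.02% of the mean, while those of S303/7A spread by 13.6%. In edgeR the log2 fold was 0.30 ± 0.12 (SE; 95% interval 0.02 to 0.58), with an unadjusted p of 0.0408 and an adjusted p of 0.491.

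Lamp1 (chromosome 8, 13159161 to 13175338) was at 15.9, 16.3 and 12.9 CPM in WT and at 16.5, 17.0 and 31.6 CPM in S303/7A. S303/7A 7 stood far above the other 5 libraries, and the remaining S303/7A libraries were close to WT. Its log2 fold of 0.53 ± 0.27 (SE; 95% interval -0.11 to 1.17) was the largest of the 9 genes, and the adjusted p in edgeR was 0.613. Without S303/7A 7 the fold was 0.15.

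Lamp1 shares 249 of its 2675 exon bases with Grtp1 on the opposite strand, and the strand setting of the counting is not given in the sources used here, so reads of that overlap cannot be told apart. Grtp1 was at 5.03, 2.28 and 3.75 CPM in WT and at 2.05, 2.04 and 6.36 CPM in S303/7A. It was therefore also highest in S303/7A 7, and its part in the Lamp1 value was not tested.

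**Figure D2:**
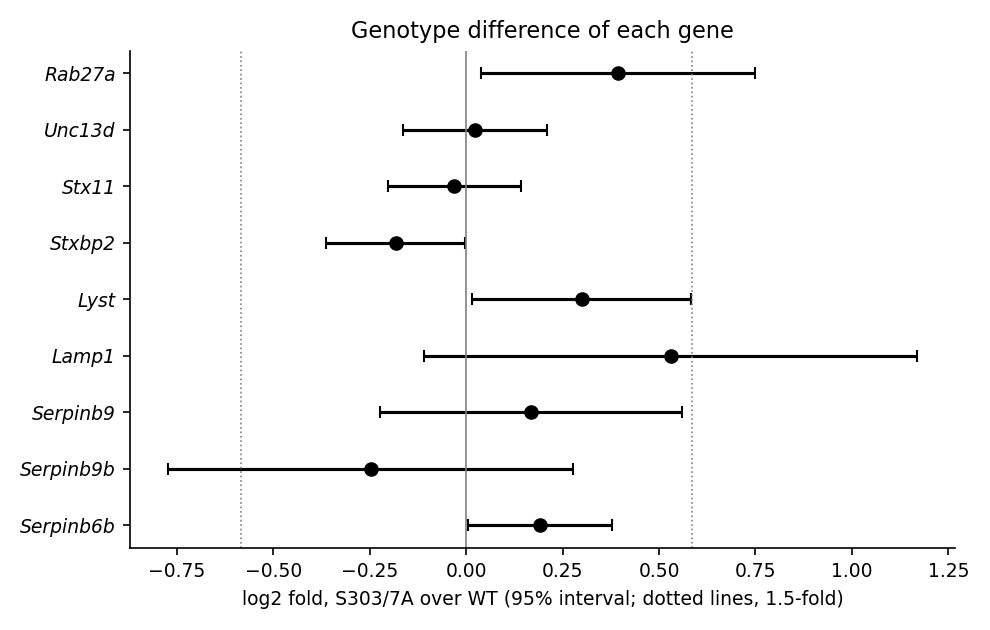
Log2 fold of S303/7A over WT for each of the 9 genes (points) with its 95% interval from the edgeR fit (bars), a solid line at 0 and dotted lines at 1.5-fold. Intervals of Rab27a, Lyst, Serpinb6b and Stxbp2 exclude 0 before adjustment, and that of Lamp1 is the widest.

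Serpinb9, the mouse serpin that inhibits granzyme B, was at 785, 603 and 1005 CPM in WT and at 881, 867 and 941 CPM in S303/7A. WT held both the lowest and the highest library, with an SD of 25.2% of the mean against 4.36% in S303/7A. The fit gave a log2 fold of 0.17 ± 0.17 (SE; 95% interval -0.22 to 0.56) and an adjusted p of 0.839 in edgeR. It was 0.37 without WT 3 (unadjusted p of 0.0189) and -0.0073 without WT 2.

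Serpinb9b, a neighbour of Serpinb9 that has been reported to inhibit granzyme M, was at 106, 110.2 and 166 CPM in WT and at 82.1, 132 and 108 CPM in S303/7A. The groups overlapped, with WT 3 highest and S303/7A 5 lowest. A log2 fold of -0.25 ± 0.22 (SE; 95% interval -0.77 to 0.28) had an adjusted p of 0.814 in edgeR, and without WT 3 the fold was -0.011.

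Serpinb6b, which has been reported to inhibit granzyme A, was at 285, 244 and 288 CPM in WT and at 314, 301 and 318 CPM in S303/7A. All S303/7A libraries were above all WT libraries, by 12.7 CPM at the nearest. The log2 fold in edgeR was 0.19 ± 0.08 (SE; 95% interval 0.0037 to 0.38), with an unadjusted p of 0.0467 and an adjusted p of 0.507. Without WT 2, the lowest library, it was 0.11.

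The pair Serpinb9 and Serpinb9b shares 89.6% of a stretch of 480 bases, and Serpinb6b shares 86.8% of 1173 bases with Serpinb6c and 85.6% of 1181 bases with Serpinb6a. Reads from the most similar parts may be split or dropped, so levels of these genes carry that uncertainty. Serpinb9b also shares 278 of its 3351 exon bases with the antisense gene Gm36099, which was at 0.255 to 1.31 CPM. That level is low beside Serpinb9b.

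Genes around the serpin group showed no call. Of 14 other tested genes within 1 Mb on each side, 0 passed edgeR's test and 1, Gm36099, had an unadjusted p under 0.05. That is 7.14% of these neighbours, beside 9.68% of all tested genes. The median log2 fold of the 14 was -0.27, beside 0.0088 for all tested genes. Gm36099 had a log2 fold of -1.40 and, as given above, shares exon bases with Serpinb9b.

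In all, the 95% intervals of 6 of the 9 genes lay within 1.5-fold in both directions, and 8 lay within 2-fold, all but Lamp1. Log2 folds were above 0 for 6 genes and below 0 for 3. Their median was 0.17, beside 0.0088 for all tested genes, and the median size of the fold regardless of direction was 0.19, beside 0.18 for all tested genes.

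Levels can be compared between genes only per length, here CPM per kilobase of annotated exon, as mean ± SD over the 6 libraries. Serpinb9 was highest at 242 ± 40.1, followed by Serpinb6b at 129 ± 11.9. Unc13d at 69.7 ± 4.29 and Stxbp2 at 60.9 ± 5.53 came next, and their ranges overlapped. With the longest transcript in place of all exons Stxbp2 came before Unc13d, at 87.1 against 80.6.

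Stx11 at 35.8 ± 1.71 and Serpinb9b at 35.0 ± 8.54 CPM per kilobase could not be ordered, and the range of Serpinb9b also overlapped that of Rab27a at 25.6 ± 5.50, whose highest library reached into the range of Stx11. In the same unit, Lamp1 at 6.86 ± 2.48 and Lyst at 2.46 ± 0.36 were lowest, each with a range clear of its neighbours in this order. Ranges were also clear between Serpinb9 and Serpinb6b, between Serpinb6b and Unc13d, and between Stxbp2 and Stx11. The order therefore runs from the cytosolic inhibitors through priming and fusion genes to the genes for granule structure, with Serpinb9b among the fusion and docking genes.

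**Figure D3:**
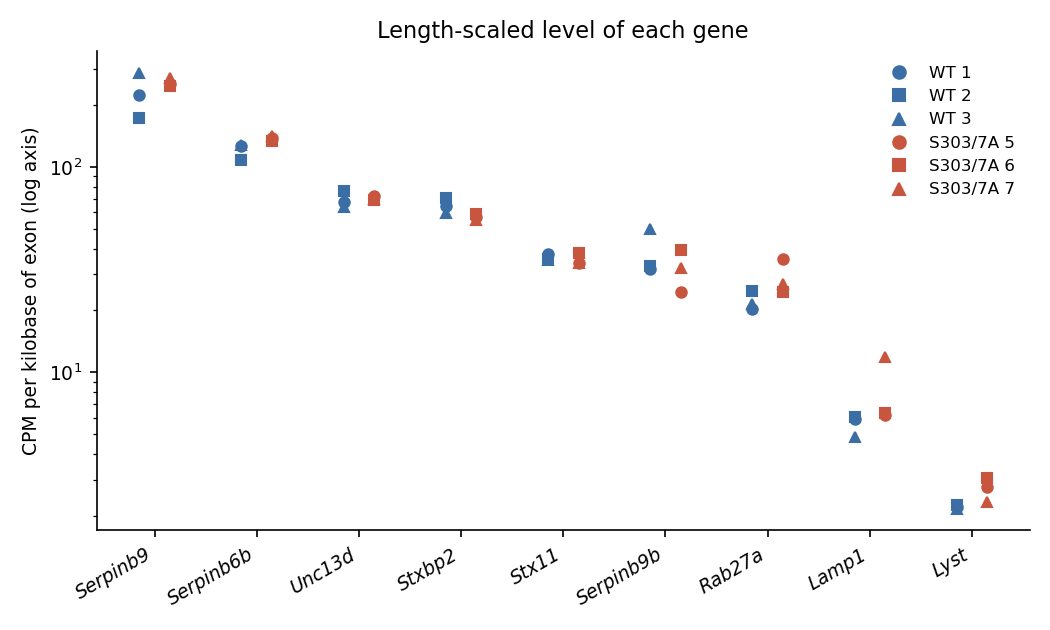
CPM per kilobase of exon (log axis) of the 9 genes in order of their mean, 1 symbol per library. Serpinb9 lies between 173 and 288, and Lyst between 2.16 and 3.06.

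Genes were then set beside their relatives, as a share of their summed CPM per kilobase. Unc13d, of the 4 Munc13 genes, held 99.2% to 99.7% in every library, and Unc13b and Unc13c had 74 and 43 counts over all 6 libraries. Rab27a held 89.0% to 92.9% of the pair with Rab27b. Its share of the pair was 86.4% to 91.2% with the longest transcripts and 74.6% to 82.7% of counts, and Rab27b was at 22.6 to 29.1 CPM. Unc13d thus made almost all of the sum of these 4 genes, and Rab27a was the larger part of a pair that was measured throughout. Baiap3, a relative of the Munc13 proteins, was not in that sum and was at 220 to 477 CPM, beside 297 to 357 CPM for Unc13d.

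Stxbp2 had lower values in all S303/7A libraries, as given above. Its relative Stxbp3, which encodes another Munc18 protein, was at 77.9, 78.7 and 84.3 CPM in WT and at 91.7, 106 and 94.0 CPM in S303/7A, higher in all 3. Its log2 fold of 0.28 ± 0.09 (SE) had an adjusted p of 0.350 in edgeR, so neither Stxbp2 nor Stxbp3 passed the test.

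Stx11 shared its family more evenly, with 33.8% to 36.9% of the sum of Stx11, Stx3, Stx4a, Stx7 and Stx8, beside 28.4% to 32.2% for Stx7 and 23.1% to 28.1% for Stx4a. With the longest transcripts Stx4a and Stx7 were above Stx11 in median, at 30.1% and 29.8% against 27.0%. Which of these syntaxins led therefore depends on the length used, and other syntaxin genes were not in the sum.

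Among 5 BEACH-domain genes Lyst held 3.88% to 6.16%, and Nbeal2, known for granules of platelets, 89.5% to 92.6%. Nbeal2 was at 466, 494 and 492 CPM in WT and at 437, 425 and 436 CPM in S303/7A, without overlap, and its log2 fold of -0.16 ± 0.055 (SE) had an adjusted p of 0.404 in edgeR. Platelet markers were lower in S303/7A too, as given below, and their part in this value was not tested.

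Lamp1 held 31.0% to 35.8% of the sum of Lamp1, Lamp2 and Lamp3 in 5 libraries and 55.3% in S303/7A 7. Lamp2, the other main protein of the lysosome membrane, was at 102, 114 and 102 CPM in WT and at 107, 110.2 and 91.0 CPM in S303/7A. With the longest transcripts the share of Lamp1 in S303/7A 7 was 35.9%, so whether Lamp1 or Lamp2 led there depends on the length used. The high Lamp1 level of S303/7A 7 thus had no match in Lamp2, which was lowest there.

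Of 5 clade B serpins compared in this way, Serpinb9 held 51.9% to 59.3%, Serpinb6b 26.3% to 32.4% and Serpinb9b 5.69% to 10.2%, and Serpinb1a and Serpinb6a the rest. In CPM the 3 granzyme inhibitors summed to 1176, 957 and 1459 in WT, against 1277, 1300.2 and 1366 in S303/7A. S303/7A libraries were within the WT range, and their SD was 46.4 CPM against 252 in WT.

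**Figure D4:**
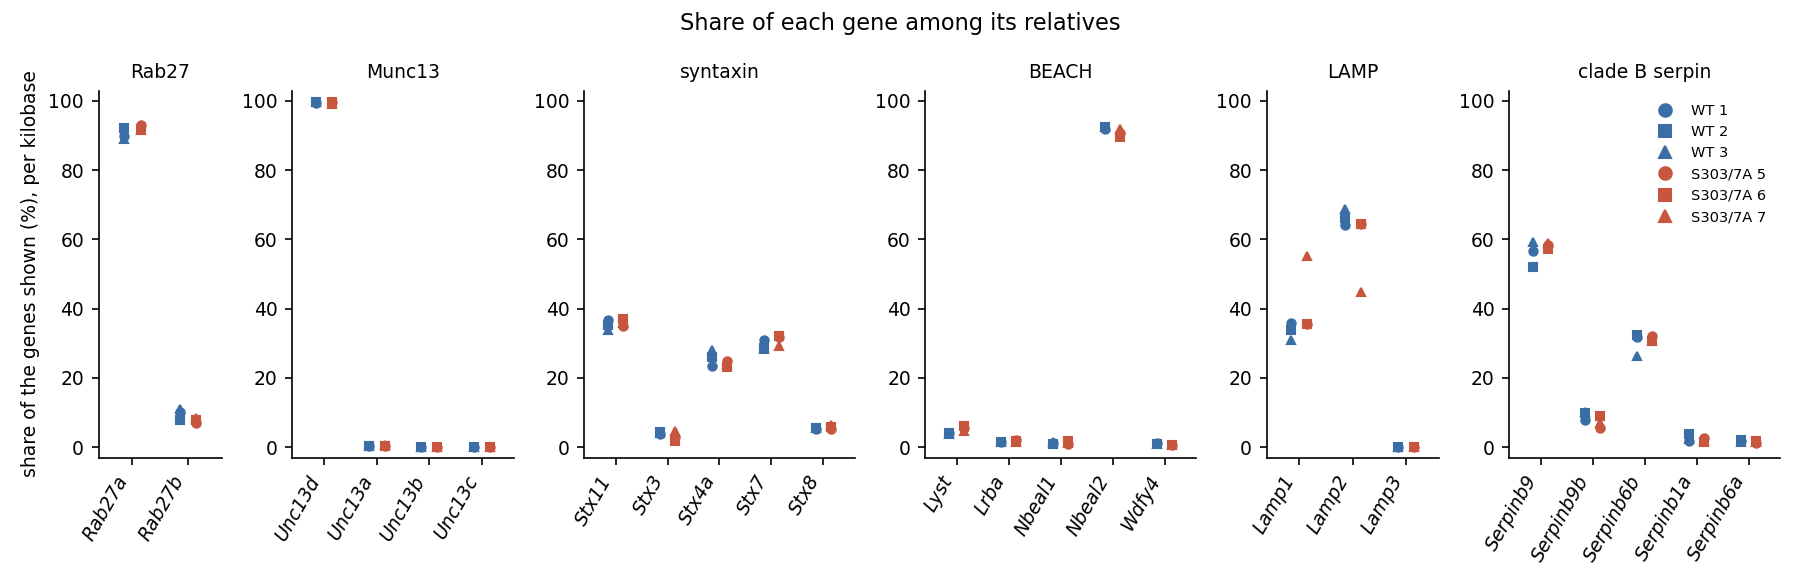
Share of each gene (%, CPM per kilobase of exon) among the relatives shown in its panel, 1 symbol per library. Unc13d holds at least 99.2% of its panel and Rab27a at least 89.0%, and the Lamp1 share is highest in S303/7A 7, at 55.3%.

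The serpins were also read against granzymes within each library, as ratios of counts, which do not depend on scaling between libraries. Counts were not divided by gene length, so the ratios compare libraries and do not say which gene had the higher level. Granzyme B (Gzmb) is the target of Serpinb9. Its own level was 537, 641 and 906 CPM in WT, against 597, 580.5 and 508 CPM in S303/7A. Its log2 fold of -0.31 ± 0.18 (SE) had an adjusted p of 0.675 in edgeR.

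Serpinb9 had 1.46, 0.942 and 1.11 counts per Gzmb count in WT and 1.48, 1.49 and 1.85 in S303/7A. The log2 ratio was 0.20 ± 0.32 (SD, n = 3) in WT and 0.68 ± 0.18 in S303/7A, a difference of 0.47. The groups did not overlap, but WT 1 at 0.55 lay next to S303/7A 5 at 0.56 and S303/7A 6 at 0.58.

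The log2 ratio of Serpinb6b to Gzmb was -1.32 ± 0.37 (SD, n = 3) in WT and -0.85 ± 0.15 in S303/7A, with overlap. That of Serpinb9b was -2.44 ± 0.10 and -2.41 ± 0.39, also with overlap. Serpinb6b was also read against the gene of granzyme A (Gzma), its reported target. That log2 ratio was -4.33 ± 0.30 (SD, n = 3) in WT and -4.09 ± 0.19 in S303/7A, with overlap. Ratios were not tested, and 3 libraries against 3 could not reach an exact permutation p under 0.05.

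**Figure D5:**
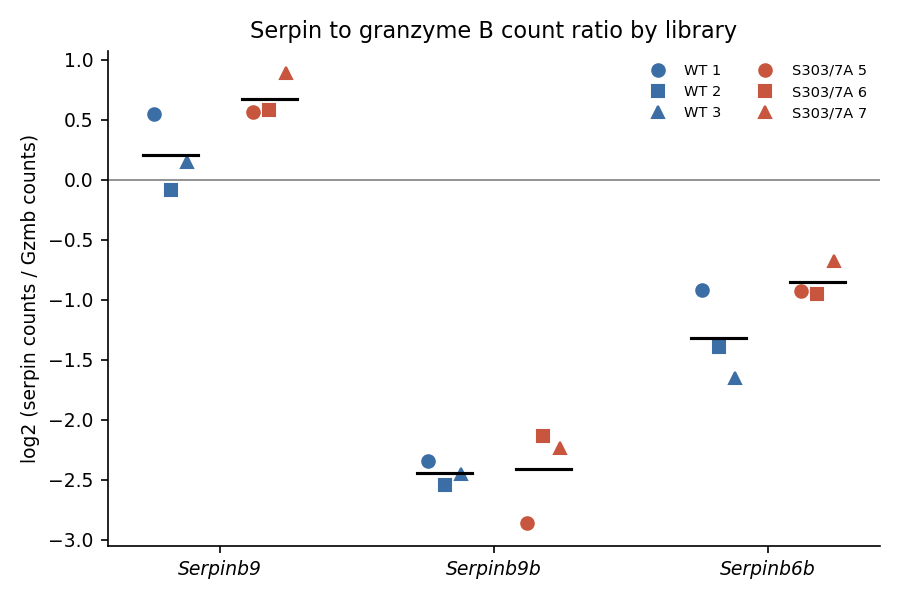
Log2 of serpin counts over Gzmb counts in each library, with the mean of each genotype as a black line. Serpinb9 is above 0 in all libraries but WT 2, and S303/7A 5 and 6 sit just above WT 1, with S303/7A 7 highest at 0.89. Counts are not divided by gene length, so 0 does not mark equal levels.

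Other genes of the same pathway were taken from fixed lists, 195 genes in 7 lists with 151 tested. These lists too were chosen with earlier results of these data known. None passed the adjusted threshold in edgeR, and 18, or 11.9%, had an unadjusted p under 0.05, beside 9.68% of all tested genes. By direction, 693 of all 16480 tested genes were higher in S303/7A and 902 lower at that p. Of the pathway genes, DESeq2 called 2, Baiap3 and Cd63, and limma-voom called 0. Over all genes DESeq2 called 434 and limma-voom 38.

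Of 23 tested genes of docking and priming, 1 was higher and 5 lower at an unadjusted p under 0.05, with a median log2 fold of -0.06. Baiap3, a relative of the Munc13 proteins on chromosome 17 (25242659 to 25256364), was at 477, 473 and 443 CPM in WT and at 220, 335 and 222 CPM in S303/7A. All S303/7A libraries were lower, and S303/7A 6 lay between the other 2 and WT. The log2 fold was -0.84 ± 0.16 (SE). The adjusted p was 0.125 in edgeR, 6.3e-05 in DESeq2, 0.00786 in edgeR with no filter on low counts and 0.00430 when S303/7A 6 was left out. Over all 13 alternatives the adjusted p ran from 6.3e-05 to 0.384.

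Rab37, a Rab protein of secretory granules, was at 281, 259 and 249 CPM in WT and at 207, 230.1 and 221 CPM in S303/7A, lower in all 3 but not called (adjusted p of 0.302 in edgeR). Exoc4, a subunit of the exocyst that tethers vesicles, had a log2 fold of 0.21 ± 0.08 (SE) with no overlap and an adjusted p of 0.437 in edgeR. These were the named docking genes beside Baiap3.

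Of 30 tested fusion genes, 3 were higher and 0 lower at an unadjusted p under 0.05, with a median log2 fold of 0.03. They were Stxbp3, Syt11 (0.36 ± 0.13, SE), a synaptotagmin, and Ykt6 (0.19 ± 0.08), a SNARE protein. Their adjusted p values ran from 0.350 for Stxbp3 to 0.487 for Ykt6 in edgeR.

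Of 43 tested genes of granule biogenesis and transport, 0 were higher and 6 lower at an unadjusted p under 0.05, with a median log2 fold of -0.02. Cd63, a tetraspanin of granules that basophils and platelets also carry, was at 52.0, 81.4 and 70.4 CPM in WT and at 34.3, 29.3 and 36.4 CPM in S303/7A, without overlap. For a log2 fold of -1.03 ± 0.18 (SE), the adjusted p was 0.100 in edgeR, 3.3e-06 in DESeq2 and 0.00712 with no filter on low counts, in a range up to 0.309 over 13 alternatives. Ap3m1, a subunit of the adaptor complex that sorts proteins to granules, had a log2 fold of -0.33 ± 0.10 (SE), and Wdfy4 of -0.83 ± 0.23, with adjusted p of 0.320 and 0.280 in edgeR.

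In the list of the secretion cytoskeleton 1 of 23 tested genes was lower at an unadjusted p under 0.05, Dctn1, a dynactin subunit (log2 fold -0.14 ± 0.057, SE, adjusted p of 0.505 in edgeR). Among 6 other tested serpins of clade B there was none, out of 24 listed. Among 11 tested other protease inhibitors 1 was lower, and among 15 tested genes of granule cargo 1, the chaperone gene Calr (-0.21 ± 0.061, adjusted p of 0.312 in edgeR). Their median log2 folds were 0.02, -0.27, -0.13 and 0.0066 in this order.

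The sorted cells carried the markers of NK cells. All 12 were above 0 in every library, and their summed level was 22815 to 24900 CPM in WT and 24115 to 24934 CPM in S303/7A. Single NK markers differed within that sum: the receptor gene Klrb1c was lower in S303/7A (log2 fold -0.54, adjusted p of 0.0454 in edgeR). At an unadjusted p under 0.05, Klrd1 was also lower (-0.35), and Klrk1 (0.57) and Klre1 (0.57) were higher, with adjusted p of 0.374, 0.0700 and 0.165 in edgeR.

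Basophil markers (12 of 12 with a log2 fold below 0) summed to 491 to 960 CPM in WT and 289 to 407 CPM in S303/7A, and platelet markers (all 13 tested of 14 below 0) to 415 to 453 and 215 to 286 CPM.

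Summed markers of neutrophils (51.6 to 89.0 against 32.8 to 39.2 CPM), monocytes and macrophages (897 to 935 against 795 to 878), erythroid cells (19.8 to 25.7 against 10.0 to 13.2) and the dendritic list (577 to 762 against 299 to 495) were lower in S303/7A without overlap. Each of these 4 sums was led by 1 gene, Cxcr2 with 70.9% of the neutrophil sum, Ccr2 with 74.7% of the monocyte sum, Car1 with 58.8% of the erythroid sum and Itgax with 92.9% of the dendritic sum. Without that gene, a step chosen after the values were seen, the neutrophil, monocyte and dendritic sums overlapped between the genotypes, and the erythroid sum did not (7.23 to 8.95 against 3.87 to 7.19 CPM). Tested markers with a log2 fold above and below 0 numbered 2 and 4 for neutrophils, 2 and 7 for monocytes, 3 and 5 for erythroid cells and 3 and 3 for the dendritic list.

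Sums of B cells (331 to 696 against 513 to 682) and T cells (382 to 524 against 434 to 470) overlapped. Ighm made 88.0% of the B cell sum, and without it the sums still overlapped. Trbc1 made 60.7% of the T cell sum. Without it the T cell sums were higher in S303/7A, at 186 to 208 CPM against 130 to 184 in WT, without overlap. This step was also chosen after the values were seen. Tested markers with a log2 fold above and below 0 numbered 7 and 3 for B cells and 8 and 3 for T cells. No marker on any list was at 0 in every library. Fewer cells of a type and less RNA per cell cannot be told apart in bulk samples. Several genes above, such as Unc13d, Rab27a, Stxbp2 and Cd63, also serve secretion in basophils and platelets, and the part of these cells in the values was not tested.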

How the data were processed

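The submitters' processing notes name the tools Trimmomatic, STAR, featureCounts and DESeq2 and the mouse build GRCm38 (mm10), with no versions. Annotation and strand setting: not given in the sources used here. Per the file headers, the authors deposited raw counts per gene and a normalized signal per gene. The deposited signal equals the counts divided by 1 size factor per library (0.817 to 1.40). Multiplying back gave whole counts within 0.01 for at least 99.998% of values, so the test on recovered reads is the test on the counts, with 60 genes called.

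Counts were tested in R 4.3.3 with edgeR 4.0.16: filterByExpr (minimum count 10, minimum total 15), TMM factors, the quasi-likelihood test of S303/7A against WT over all 16480 genes, and a threshold of 0.05 for adjusted p. Standard errors are the log2 fold divided by the root of the F statistic, and 95% intervals follow from them. The library titles give a group and a number, and each library was taken as 1 mouse. The fit was run on simulated counts first. DESeq2 1.42.0, limma 3.58.1 (voom), other scalings, no filter, thinning to equal totals, a robust fit and leaving out each library were alternatives.

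Positions, exon lengths and overlaps are from GENCODE M21, similar stretches from blastn of its transcripts, and promoter windows from RefSeq, all on GRCm38. The genes and lists were chosen with earlier results of these data known. Beyond the 10 genes and fixed relatives, the text names called genes of the pathway lists (none) and up to 3 per list with an unadjusted p under 0.05, no overlap and mean log2 CPM of 2 or more.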

Additional observations from a re-analysis of the deposited data

How the results depend on the processing

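None of the 9 genes was called under any of 13 alternatives (7 other settings and 6 fits that each left out 1 library), and 0 genes near the serpin group were called within 0.5, 1 or 2 Mb. Directions held for 7 of the 9 genes. The log2 fold of Unc13d was -0.0055 with library totals, and leaving out 1 library gave -0.034 to 0.088 for Unc13d and -0.0073 to 0.37 for Serpinb9. The number of genes called among all tested moved from 60 to 434 with DESeq2, 38 with limma-voom, 171 without the low-count filter and 5 to 57 when 1 library was left out, lowest without WT 2. Called genes of the pathway and cell type lists, 3 in all and each a cell type marker, became 26 with DESeq2, 17 without the filter and 0 to 3 when 1 library was left out; the cause was not tested. The difference in log2 ratio of Serpinb9 to Gzmb ranged from 0.33 to 0.65 when 1 library was left out. Lamp1, with as few as 709 counts and an interval reaching 2.25-fold, is measured least precisely. No paired analysis was possible because the replicate numbers of the genotypes are not shared.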

Other observations

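Serpinb9b and granzyme A (Gzma) kept nearly the same ratio in most libraries, a pattern chosen after the values were seen. Gzma was at 4667, 4872 and 7197 CPM in WT and at 5042, 5945 and 4898 CPM in S303/7A, a spread that Serpinb9b followed in WT. The log2 ratio of Serpinb9b to Gzma was -5.46, -5.47 and -5.44 in WT, with an SD of 0.015, while Serpinb9b itself varied with an SD of 26.2% of its mean. It was -5.49 and -5.51 in S303/7A 6 and 7 and -5.94 in S303/7A 5.

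WT 3 had the highest level of Serpinb9, Serpinb9b, Gzma and Gzmb of the 6 libraries and the lowest of granzyme M (Gzmm), also seen afterwards. Gzmm was at 35.0, 24.0 and 16.6 CPM in WT and at 40.2, 29.3 and 31.5 CPM in S303/7A, with an adjusted p of 0.719 in edgeR. Serpinb9b, the serpin reported to act on granzyme M, had 3.03, 4.60 and 10.0 counts per Gzmm count in WT and 2.04, 4.52 and 3.42 in S303/7A.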
